A study of Mus musculus with 8 samples.

Results

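The vehicle-treated tumours of a mouse neuroblastoma model are described here across all genes. They were the 4 libraries that the labels put in the vehicle group, of 8 libraries in the series, with 1 library per animal and no pooling of animals. All came from mice homozygous for TH-MYCN, a transgene in which the tyrosine hydroxylase promoter drives human MYCN in cells of the sympathetic lineage. Each mouse carried an intra-abdominal neuroblastoma, treatment began when the tumour measured 200 to 300 mm3 at about 6 weeks of age, and each mouse received 2 doses of vehicle 24 h apart. Collection followed the final dose by 4 h, and RNA was made from the whole tumour with its stroma. The other 4 libraries, from panobinostat-treated mice, were not used. With a single group there is no contrast between conditions. The questions were which transcripts lead in the untreated tumour and which differ between tumours of the same genotype and treatment.

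Neuroblastoma arises from the sympathetic branch of the neural crest, whose cells make catecholamines under a set of transcription factors that includes HAND2, GATA3, ISL1 and TFAP2B. MYCN is a transcription factor that pairs with MAX on E-box sequences, and amplified MYCN marks high-risk disease in children. Genes of ribosome production, nucleotide synthesis and cell division are among those it is known to drive. Cells of these tumours are described as adrenergic, with the sympathetic factors above, or mesenchymal, with factors such as PRRX1, YAP1 and members of the FOSL family.

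Each library held 22055658 to 23830026 reads over 17488 listed genes, so that 1 CPM, the read count scaled to library size, stood for 20.4 to 22.6 reads. Genes with a mean of at least 0 on the log2 CPM scale, that is about 1 CPM, are called expressed here, and there were 15409. Across them the tumours correlated at r = 0.939 to 0.970 by pair, which is a description across genes that share each library. Tumours 1 and 2 differed at least 2-fold in 881 genes and tumours 1 and 4 in 2417. Each of the 4 tumours stood apart in some marker genes or in composition, and results that rest on 1 tumour carry the values. Tumour 1 held the most reads of fat, lymphocyte and stromal markers, and tumour 2 held skeletal muscle transcripts, with fewer in tumour 3. Endothelial markers were lowest in tumour 3, with a list sum of 181 CPM against 420 to 905 in the others. In tumour 4 the deviation of a gene from its mean over the tumours followed the GC content of its transcript. It also followed the mean level and the exon length of the gene. Levels of different genes are compared only per exon length, as mean log2 CPM minus the log2 of the union of exons in kb. The median of all expressed genes on that scale was 2.68, and the top 10% began at 5.23.

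The label fitted the leading neural genes. Isl1, a LIM homeobox factor of sympathetic and motor neurons, read 8.79, 8.87, 9.47 and 8.98 log2 CPM in tumours 1 to 4, and Th, the rate-limiting enzyme of catecholamine synthesis, read 7.78, 7.48, 8.86 and 8.87. Both were high in all 4 tumours, at percentiles 98.0 and 97.9 of expressed genes per exon length. Of 12 markers of the neighbouring adrenal cortex 4 were expressed, with a list sum of 108, 108, 63.5 and 110 CPM. They were Scarb1, a lipoprotein receptor (5.42 to 6.42 log2 CPM), Fdx1, a mitochondrial electron carrier (3.15 to 3.79), Star, a cholesterol carrier (2.98 to 3.31), and Mrap (2.66, 0.92, -0.74 and -1.16). The enzymes and the factor that define steroid synthesis had few reads. Cyp11a1, its first enzyme, had 4, 5, 12 and 9 reads, Cyp11b2, the aldosterone synthase, had 0 reads in every tumour, which allows up to 0.147 CPM (3 reads in a library, counting error only), and Nr5a1, the steroidogenic master factor, had 0, 0, 0 and 2 reads. Of 5 measured kidney markers none was expressed, and of 13 pancreas markers 1 was (Cela1). Of 14 liver markers 4 were expressed, with a list sum of 364, 89.5, 34.9 and 20.5 CPM. Hp, haptoglobin, Cyp2e1 (5.86, 2.79, 1.35 and 1.74 log2 CPM) and Itih4 (5.77, 3.91, 1.42 and -0.27) were highest in tumour 1, while Alb, the main liver transcript, lay at 0.80 to 2.25 log2 CPM and Apoa1 had 4 to 9 reads.

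The most abundant transcripts per exon length came from the mitochondrial genome. The leading gene was mt-Co1, a cytochrome oxidase subunit encoded in the mitochondrion, with a mean of 13.50 log2 CPM and 12.87 per kb. Its tumour values were 13.83, 13.96, 13.29 and 12.92 log2 CPM. All 15 mitochondrially encoded genes on the list were in the top 10% per exon length. Because that class holds 10% of expressed genes by construction, the shares that follow are read against 10%. Among nuclear genes other than pseudogenes the highest per kb were Ptma, the prothymosin of dividing cells (10.97), Tuba1a, the alpha-tubulin of young neurons (10.63), Eef2, the elongation factor of translation (10.61), and Hsp90ab1, a constitutive chaperone (10.33).

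The plot of list levels shows the gene lists on this scale. Of 28 translation factors 22 (78.6%) were in the top 10% per exon length, of 40 nuclear respiratory chain genes 31 (77.5%), of 78 cytoplasmic ribosomal protein genes 56 (71.8%) and of 24 neuronal cytoskeleton genes 15 (62.5%). Imprinted genes followed with 11 of 20 (55%) and mitosis genes with 14 of 30 (46.7%). At the other end, no member was in the top 10% among 19 mesenchymal transcription factors, 16 endothelial genes, 23 interferon-stimulated genes and 19 hypoxia genes. Of 6 expressed erythroid genes 4 (66.7%), all globins, were in the top 10%, with Hbb-bs at 10.19 and Hba-a2 at 9.90 log2 CPM per kb, and the list had the next highest median after mitochondrially encoded genes (9.53). Hbb-bs read 10.15, 9.96, 9.69 and 9.44 log2 CPM.

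**Figure D1:**
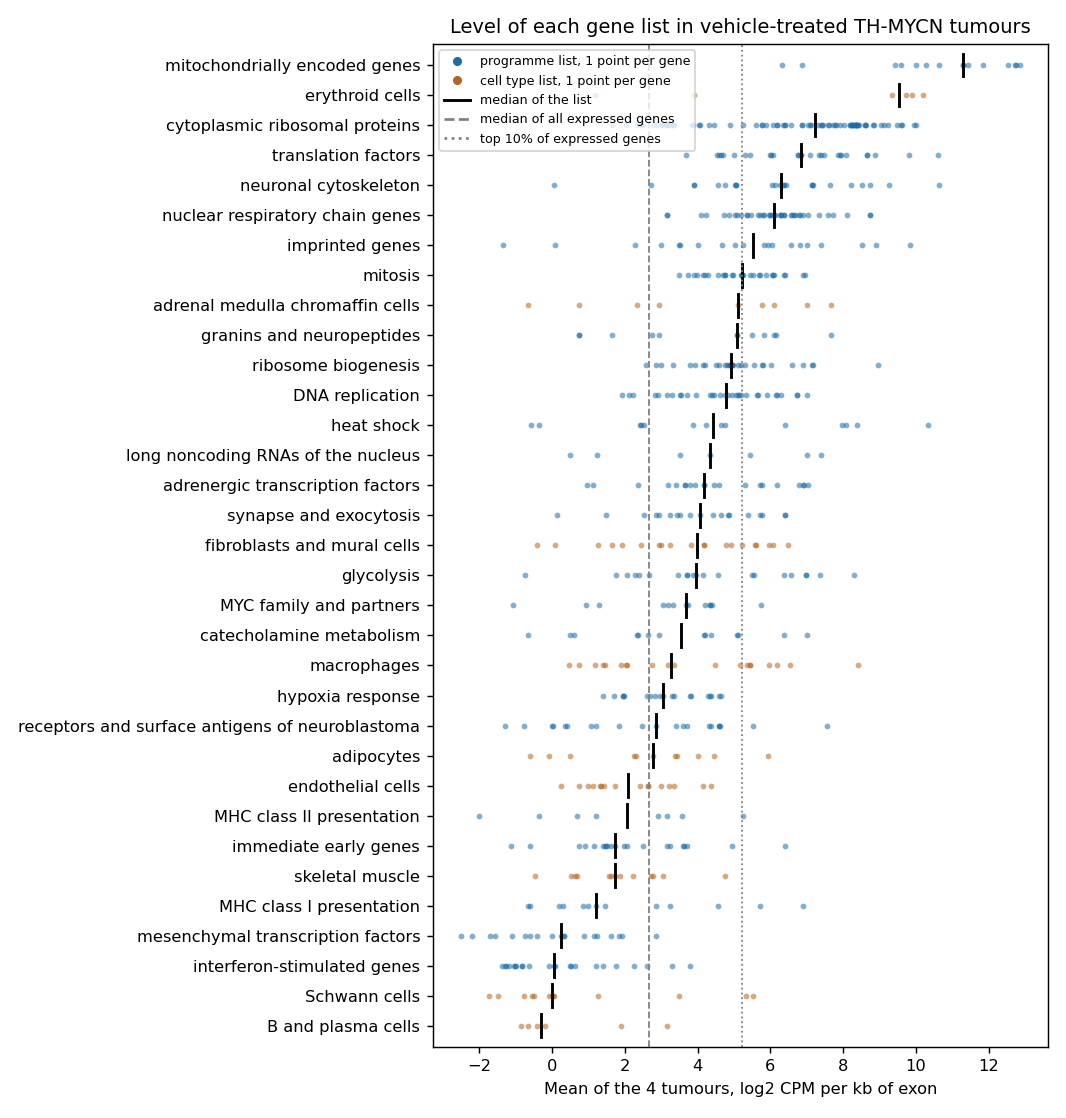
Mean level over the 4 vehicle tumours (horizontal axis, log2 CPM per kb of exon) of each expressed gene in lists with at least 6 expressed members. Points are genes, black bars are list medians, and the grey lines mark the median of all expressed genes (2.68) and the start of the top 10% (5.23). Mitochondrially encoded genes have the highest list median, and B and plasma cell genes have the lowest.

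Levels per length were uncertain for genes with near-identical copies. Of the 100 highest transcripts per exon length 36 were pseudogenes, against 4 of the 100 highest by log2 CPM. Gm9800 and Gm10182, processed pseudogenes, ranked 9 and 14 per exon length. Gapdh, a glycolytic enzyme that has many pseudogene copies in the mouse genome, had only 372, 348, 435 and 349 reads. How the authors treated reads that map to several places is not given in the sources used here, so the levels of Gapdh, ribosomal protein genes such as Rpl29 (1.93 to 2.59 log2 CPM) and their copies cannot be taken at face value.

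Transcription factors of sympathetic identity were among the well expressed genes, and those of the mesenchymal state were not. Of 21 adrenergic factors on the list, all were expressed and 8 (38.1%) were in the top 10% per exon length, with a list median of 4.19 log2 CPM per kb. Of 22 mesenchymal factors 19 were expressed, none in the top 10%, with a median of 0.24. Per kb the highest adrenergic factors were Isl1 (7.04), Hand2, a bHLH factor of the same lineage (6.90), and Tfap2b, an AP-2 factor (6.79). The highest mesenchymal factors were Aebp1 (2.86), Maff (1.93) and Wwtr1, which encodes the Hippo effector TAZ (1.83). Prrx1 and Yap1 lay at 0.24 and -0.01 per kb. These lists were taken from knowledge of the 2 described states, and the tumours hold stroma, in which mesenchymal factors are also expressed.

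Levels of the sympathetic factors were close between tumours. Hand2 read 7.80, 8.08, 7.98 and 8.68 log2 CPM, and Tfap2b read 9.21, 9.29, 9.73 and 9.60. The SD was 0.31 in Isl1, 0.38 in Hand2 and 0.25 in Tfap2b. The median was 0.287 over all expressed genes and 0.23 over those of at least 8 log2 CPM, the level of these 3 factors. Gata3, a zinc finger factor of the lineage, was at 6.02, 6.26, 5.72 and 6.67 log2 CPM, and its relative Gata2 was lowest in tumour 3 (7.71, 7.18, 5.51 and 7.13). Of the 21 factors a single gene passed an SD of 1 on the log2 scale, which is a 2-fold spread. That rule was met by 750 expressed genes, or 4.87%. The gene was Hand1, a relative of Hand2 that is described further on.

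Catecholamine genes held the pathway from tyrosine to noradrenaline, and its last step to adrenaline was low. Th and Ddc, the decarboxylase that makes dopamine, were at 7.01 and 6.37 log2 CPM per kb, Dbh, which makes noradrenaline, was at 5.11, and Pnmt, which makes adrenaline in the adrenal medulla, was at 2.33. Dbh varied most of these, with 6.50, 5.23, 6.60 and 7.84 log2 CPM and a 6.12-fold range. It was lowest in tumour 2 and highest in tumour 4. Slc18a2, the vesicular transporter that loads amines in sympathetic neurons, was at 4.20 per kb, above Slc18a1, its relative in chromaffin cells, at -0.65. Among granins, the proteins of dense-core vesicles, Chgb led with 7.67 per kb and read 9.73, 9.85, 8.19 and 8.74 log2 CPM, lower in tumours 3 and 4. Chga stood at 7.83, 7.44, 7.15 and 7.84 log2 CPM. Npy, a peptide stored with noradrenaline, was at 2.95 per kb, near the median gene, and read 1.25 to 2.84 log2 CPM.

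Receptors that mark or treat neuroblastoma were present at moderate levels. Cd24a, a small surface glycoprotein, was the highest of 21 expressed members (7.57 log2 CPM per kb). Gfra3, the artemin coreceptor, followed at 5.52. Ncam1 (4.62), Gpc2, a glypican used as an antibody target (4.60), and Cd276, which encodes B7-H3 (4.58), formed a next group. Alk, the receptor tyrosine kinase mutated in some human neuroblastomas, read 5.88, 6.05, 6.83 and 6.71 log2 CPM and lay at 3.41 per kb, above the median gene. Ret, the receptor of the GDNF family, was at 5.27, 4.98, 5.30 and 5.41 log2 CPM. The synthases of the ganglioside GD2, St8sia1 (4.37 per kb) and B4galnt1 (4.30 per kb), were both expressed in every tumour.

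Mycn was expressed in all 4 tumours at 7.06, 7.48, 7.34 and 7.92 log2 CPM, which placed it at percentile 93.5 per exon length. The row belongs to the mouse gene on chr12:12936093-12941914 of the mm10 assembly. How reads of the human transgene were assigned is not given in the sources used here, so the endogenous gene and the transgene cannot be told apart. Tumour 4 was highest and tumour 1 lowest, a 1.82-fold range. Myc, the relative that most other tissues use, was at 2.93, 2.37, 1.99 and 2.22 log2 CPM, highest in tumour 1. Its partner gene Max read 5.88, 5.83, 6.07 and 6.44 log2 CPM. Of the repressors that compete for Max, Mnt (4.41 per kb), Mxd3 (4.35) and Mxi1 (4.33) were all above the median gene. Mlxipl, a glucose-sensing factor of fat and liver, was the 1 member of 13 with an SD of at least 1, and fell in the order 2.84, 2.55, 0.65 and -0.45 log2 CPM over tumours 1 to 4, the order of the fat markers given further on.

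Ribosome biogenesis genes were highly expressed. All 30 were expressed and 10 (33.3%) were in the top 10% per exon length. Their median SD was 0.25, against 0.22 for all genes between 6 and 8 log2 CPM. Npm1, the nucleolar chaperone, was at 8.96 log2 CPM per kb, Srm, the spermidine synthase, at 7.17, Ncl, nucleolin, at 7.16, and Odc1, the first enzyme of polyamine synthesis and a textbook MYC target, at 6.88. Npm1 read 10.35, 10.64, 10.30 and 10.22 log2 CPM, and Srm read 7.40, 7.95, 7.63 and 8.42. All 30 members had their highest value in tumour 2 (10 genes) or tumour 4 (20 genes), where 57.1% of all expressed genes had theirs. With each tumour centred within 5 bins of transcript GC content, 13 members were highest in tumour 4, beside 27.8% of all genes. The part of GC content in this result was not tested.

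Promoters of this list are shown because the tumours are driven by MYCN and the E-box is the sequence that MYC proteins are known to bind. The E-box was searched as CACGTG, which reads the same on both strands, in windows from 250 bases before to 50 bases after RefSeq gene starts (GRCm38.p6). Of the 30 members 23 had a window, and 5 of these (21.7%) held the sequence: Nme1, Pes1, Wdr43, Nop2 and Utp20. Of 11033 expressed genes with a window 11.5% held it, of all 27025 genes with a window 8.09%, and of all 32851 windows of the same length 7.15%. Among 22 translation factors with a window 7 (31.8%) held it, and among 57 ribosomal protein genes 6 (10.5%). Of 28 nuclear respiratory chain genes with a window 2 (7.14%) held it, and of 13 neuronal cytoskeleton genes 0. These are matches of letters and not sites of binding, and a window without them says nothing of the factor. The 3 windows below belong to the members with a match that ranked highest per exon length, and capitals mark CACGTG. Nme1, a nucleoside diphosphate kinase, lies on the minus strand at chr11:93968223-93968522, and its match begins at base 233 of the window. Pes1, a factor of the large ribosomal subunit, lies on the plus strand at chr11:3963725-3964024 with the match at base 253. Wdr43, a factor of the small subunit, lies on the plus strand at chr17:71615965-71616264 with the match at base 268.
Nme1: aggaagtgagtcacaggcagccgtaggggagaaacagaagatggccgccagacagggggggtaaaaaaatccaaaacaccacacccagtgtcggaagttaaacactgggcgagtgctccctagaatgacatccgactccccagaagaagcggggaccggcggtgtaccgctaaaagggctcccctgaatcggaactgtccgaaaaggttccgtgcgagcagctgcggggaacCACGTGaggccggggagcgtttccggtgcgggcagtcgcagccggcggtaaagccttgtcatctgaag
Pes1: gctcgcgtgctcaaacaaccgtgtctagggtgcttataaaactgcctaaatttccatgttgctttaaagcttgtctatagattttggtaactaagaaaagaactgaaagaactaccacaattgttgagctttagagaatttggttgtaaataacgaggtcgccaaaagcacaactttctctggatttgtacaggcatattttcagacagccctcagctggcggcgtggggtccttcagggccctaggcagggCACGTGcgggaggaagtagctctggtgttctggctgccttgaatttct
Wdr43: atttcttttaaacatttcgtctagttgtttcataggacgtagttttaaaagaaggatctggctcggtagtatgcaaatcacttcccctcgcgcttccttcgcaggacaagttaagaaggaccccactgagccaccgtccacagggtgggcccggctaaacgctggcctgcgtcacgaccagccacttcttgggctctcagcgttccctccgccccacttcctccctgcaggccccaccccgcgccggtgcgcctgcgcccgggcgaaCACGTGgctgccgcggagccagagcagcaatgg

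In these tumours the genes of the 3 windows were at similar levels: Nme1 read 7.21, 7.56, 7.45 and 7.83 log2 CPM, Pes1 read 7.07, 7.15, 6.94 and 7.44, and Wdr43 read 7.36, 7.54, 7.26 and 7.30. Tumour 4 was highest for Nme1 and Pes1, and tumour 2 for Wdr43. Their SDs were 0.26, 0.21 and 0.12, against a median of 0.22 for all genes between 6 and 8 log2 CPM.

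Cell cycle genes were high in every tumour. Of 30 mitosis genes 14 were in the top 10% per exon length, and of 32 DNA replication genes 10 (31.2%). Mki67, the proliferation antigen, was at 10.53, 10.73, 10.36 and 9.52 log2 CPM, and Top2a, the topoisomerase of dividing cells, at 9.45, 9.53, 9.78 and 9.50. Rrm2, a ribonucleotide reductase subunit, read 8.35, 8.56, 8.26 and 8.72, and Pcna, the replication clamp, read 7.94, 8.12, 7.86 and 8.08. No gene of either list had an SD of at least 1, as few genes at their level did (0.33% between 6 and 8 log2 CPM), and the range of the list medians over tumours was 0.14 for mitosis, the next smallest after immediate early genes among 42 lists. The 3 most variable mitosis genes, Cenpf, Cenpe and Mki67, were each lowest in tumour 4. Cenpf read 8.37, 8.43, 8.55 and 7.04 log2 CPM, and Cenpe, a kinetochore motor, read 7.65, 7.73, 7.39 and 6.42, while Cdc20 and Plk1 were highest in tumour 4 (8.14 and 8.01). Transcripts of replication-dependent histones, which lack a poly(A) tail, were barely seen: of 24 genes 15 were not listed, and 3 were expressed.

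Imprinted genes of the embryo were among the leading nuclear transcripts. Peg10, a retrotransposon-derived imprinted gene, ranked next to mt-Co1 by log2 CPM with 12.31, 12.35, 12.45 and 13.19, highest in tumour 4. Dlk1, a Notch pathway ligand of progenitor cells, read 10.84, 10.95, 11.02 and 11.26, and Nnat, neuronatin, read 9.45, 9.89, 9.78 and 9.98. Per kb these 3 genes stood at 9.84, 8.52 and 8.90, above the maternal noncoding RNAs of the Dlk1 domain on chromosome 12, Rian at 7.40 and Meg3 at 7.00. Rian read 11.59, 11.54, 11.91 and 11.31 log2 CPM, and Meg3 read 11.15, 10.97, 11.86 and 10.73, both highest in tumour 3. Igf2, the fetal growth factor, was by contrast at 3.75, 2.93, 2.57 and 1.10, below H19 of the same locus at 6.02, 7.43, 8.15 and 6.89 log2 CPM, and on the scale per kb they stood at 0.07 and 5.82. Plagl1, an imprinted zinc finger gene, stood apart in tumour 3 (5.37, 5.32, 7.53 and 5.57).

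Of the oncofetal RNA-binding genes, Lin28b, the inhibitor of let-7 maturation that is known to drive neuroblastoma, was at 6.18, 5.97, 5.42 and 5.04 log2 CPM. Its relative Lin28a had 2 to 5 reads. Igf2bp3 was higher in tumours 3 and 4 than in tumours 1 and 2 (2.34, 2.84, 5.01 and 4.46), a 6.37-fold range, and Hmga1, an architectural chromatin protein, was at 6.32 per kb with 7.22, 7.47, 7.27 and 7.69 log2 CPM.

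The median SD of an expressed gene over the 4 tumours was 0.287 on the log2 scale, and the median coefficient of variation was 20%. At this depth the spread between tumours exceeded counting error in 13872 of 15409 genes (90%, chi-square test of homogeneity with Benjamini-Hochberg adjusted p under 0.05). Since nearly all genes passed, that test marks no gene out, and with an added technical variation of 10% it called 7272. The test compares these libraries, each from 1 animal, and its spread includes that of library preparation. A highest tumour at least 4-fold above the lowest was seen in 981 genes (6.37%). Spread fell with level, from a median SD of 0.51 in genes below 2 log2 CPM to 0.22 in those between 6 and 8. Of the 750 genes with an SD of at least 1, 402 (53.6%) were highest in tumour 1, 164 in tumour 2, 152 in tumour 3 and 32 (4.27%) in tumour 4. Over all expressed genes these shares were 24.2%, 18.1%, 18.7% and 39%. In 427 of the 750 both tumours 1 and 2 lay above both tumours 3 and 4, an order that 25% of all expressed genes had. The reverse held in 148, and in 24.5% of all expressed genes. The first principal component, with 55.4% of the variance, separated the same pairs, and the second, with 26.3%, separated tumours 1 and 4 from 2 and 3.

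**Figure D2:**
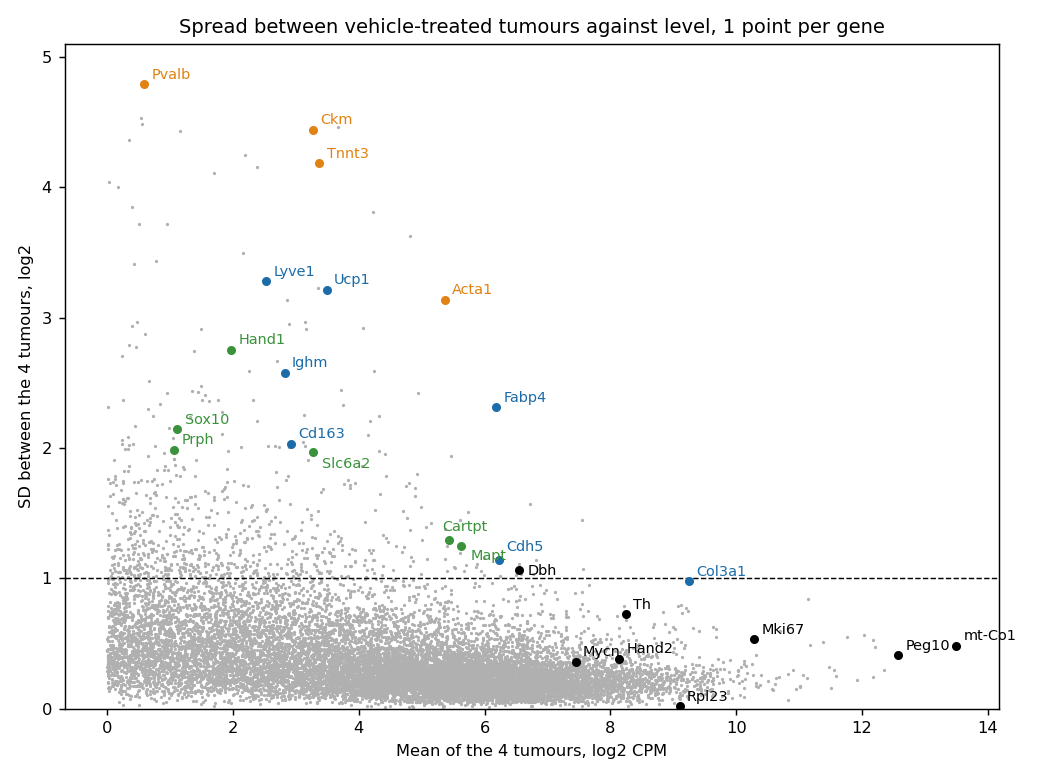
SD between the 4 vehicle tumours (vertical axis, log2) against the mean level (horizontal axis, log2 CPM), 1 grey point per expressed gene. The dashed line marks an SD of 1. Muscle genes are labelled in orange, fat, vessel, blood and matrix genes in blue, neural genes of tumours 3 and 4 in green and other named genes in black. Acta1 and Ckm lie far above the line, and Mycn, Hand2 and Rpl23 lie below it.

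Skeletal muscle transcripts gave the largest spread. Acta1, the actin of skeletal muscle (chr8:123891769-123894751), read 2.72, 9.33, 6.43 and 2.98 log2 CPM, a 97.5-fold range. Ckm, muscle creatine kinase, read -0.22, 8.44, 5.49 and -0.65, and Myh4, a fast myosin, read 1.72, 9.13, 6.49 and 1.93. Tumour 2 was high, tumour 3 intermediate, and tumours 1 and 4 were lowest. All 13 muscle markers followed the same order of tumours 2 and 3 above 1 and 4, all 13 were highest in tumour 2 (18.1% of all expressed genes were), and all had an SD of at least 1. Their summed level was 19.6, 3711, 466 and 21.4 CPM. Without tumour 2 the range of the list's median over tumours was 4.82 in place of 8.59 log2, and tumour 3 alone then stood out. Tpm2, a tropomyosin of striated and smooth muscle, followed with 4.57, 7.70, 5.50 and 4.69, as did Des, desmin, counted here among mural genes, with 4.09, 7.27, 4.81 and 3.39. In 80 of the 750 variable genes (10.7%) the order was tumour 2, then 3, then 1 and 4. The share of all expressed genes with that order was not counted, so the 80 genes are not read as following the muscle markers. From bulk RNA fewer cells of a type and less RNA per cell cannot be told apart, here and in the cell type lists that follow.

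Fat markers separated the tumours in another order. Fabp4, the fatty acid-binding protein of fat cells and capillaries, read 8.83, 7.35, 4.75 and 3.81 log2 CPM, a 32.3-fold range, and Adipoq, the fat hormone adiponectin, read 4.94, 3.14, 1.47 and 1.28. Ucp1, the uncoupling protein of brown fat (chr8:83290352-83298452), was at 6.43 and 6.08 in tumours 1 and 2 and at 1.19 and 0.27 in tumours 3 and 4. All 11 members that passed the filter, of 12 measured, were highest in tumour 1, against 24.2% of all expressed genes, and 10 had an SD of at least 1. Their summed level was 1210, 623, 181 and 162 CPM. Lpl, lipoprotein lipase and a member of the list, read 7.87, 7.69, 6.09 and 5.59. Lipid genes outside the list, named for their large SD in these tumours, had the same order. Scd1, a fatty acid desaturase, read 9.31, 8.06, 6.76 and 6.04, and Cd36, a fatty acid transporter, 7.27, 6.77, 4.53 and 4.34. Hp, haptoglobin, listed as a liver gene and also made by fat, read 7.95, 5.95, 4.43 and 3.51 while Alb was highest in tumour 3. Complement genes C3 (8.04, 8.11, 5.29 and 5.43) and C4b (6.58, 5.40, 4.15 and 4.21) were higher in tumours 1 and 2.

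Stroma and vessels were also richest in tumour 1. The fibrillar collagen Col3a1 read 10.67, 9.14, 8.73 and 8.48 log2 CPM, and Col1a1 read 10.35, 8.99, 8.77 and 8.71, and tumour 1 was apart from the other 3. Of 20 fibroblast and mural genes 15 were highest in tumour 1, where 24.2% of all expressed genes were highest. The list sum was 6887, 3437, 2622 and 2447 CPM. Pdgfra, a fibroblast receptor, fell from 4.73 and 3.71 in tumours 1 and 2 to 1.42 and 1.80 in tumours 3 and 4, and Lox, which crosslinks collagen, read 7.08, 5.19, 4.60 and 3.70. Fbln1, fibulin 1, had the reverse order (6.26, 6.54, 7.34 and 7.44). Mesenchymal transcription factors moved with these lists: 14 of 19 were highest in tumour 1, and Prrx1 read 5.07, 3.69, 3.49 and 2.60. Without tumour 1 the range of their median over tumours was 0.43 log2 in place of 1.02. The part of fibroblasts in this result was not tested.

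All 16 endothelial genes were highest in tumour 1, where 24.2% of all expressed genes were highest. Of the 16, 15 were lowest in tumour 3, where 30.9% of all expressed genes were lowest. Cdh5, the cadherin of vessel walls, read 7.33, 6.88, 4.73 and 5.99 log2 CPM, Pecam1 read 7.04, 6.32, 4.50 and 5.60, and Tie1, a vascular receptor kinase, read 5.95, 5.40, 3.12 and 4.41. The sum of the list was 905, 585, 181 and 420 CPM, so that tumour 3 held the fewest vessel transcripts. Adgrf5 (6.78, 6.19, 3.72 and 4.77), Ptprb (6.51, 6.01, 3.90 and 5.05) and Cav1 (6.75, 6.15, 4.18 and 4.50), which are endothelial genes outside the list, had the same order. The widest range of the list was in Lyve1, a receptor of lymphatic vessels and some macrophages, with 6.36, 3.72, 1.35 and -1.32 log2 CPM (1862, 268, 57 and 8 reads). Of 19 hypoxia genes 12 were highest in tumour 1, beside 24.2% of all expressed genes. The list median ranged by 0.29 log2 over tumours while its members went both ways. Vegfa, the vessel growth factor, read 6.53, 6.48, 6.29 and 6.26, the smallest SD of the list. Egln3, an oxygen-sensing hydroxylase, was higher in tumours 3 and 4 (3.41, 3.09, 5.09 and 4.81), and Ddit4, an mTOR inhibitor, was higher in tumours 1 and 2 (6.26, 5.71, 4.96 and 4.65).

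Immune transcripts of several lineages were concentrated in tumour 1. The macrophage list was highest there in 18 of 20 genes, beside 24.2% of all expressed genes. The list sum was 1782, 958, 1073 and 1249 CPM. C1qa, a complement component, read 6.36, 5.83, 5.88 and 5.99 log2 CPM, and Cd68, a lysosomal glycoprotein, 5.80, 5.30, 5.41 and 5.47. The most variable members of the list ranged more widely: Mrc1, the mannose receptor, read 6.78, 4.48, 4.45 and 3.12, and Cd163, the haemoglobin scavenger receptor, read 5.44, 3.60, 1.76 and 0.86. Lyz2, lysozyme, and Cd5l, a macrophage apoptosis inhibitor, were by contrast highest in tumour 4 (9.14, 8.10, 8.76 and 9.22, and 5.26, 4.97, 6.18 and 7.55).

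B and T cell genes had most of their reads in tumour 1. Ighm, the IgM heavy chain, read 6.60, 2.03, 0.77 and 1.89 log2 CPM, and the 11 measured B cell genes summed to 216, 12.9, 7.45 and 8.55 CPM. Of these genes 6 passed the expression filter, and 3 of the 6 lay near or below 0 log2 CPM outside tumour 1, so the filter itself favours genes that are high there. Cd3e, of the T cell receptor complex, had 54, 4, 2 and 5 reads. Antigen presentation genes had the same leader. All 8 MHC class II genes that passed the filter, of 10 measured, were highest in tumour 1. Of 13 class I genes 12 were, beside 24.2% of all expressed genes. Cd74, the class II invariant chain, read 7.50, 5.73, 5.47 and 5.26 log2 CPM, and H2-K1 read 7.39, 6.36, 5.34 and 5.40. Without tumour 1 the range of the class II median over tumours was 0.40 log2 in place of 2.21, and that of class I 0.73 in place of 1.57. The list median of class I genes was 1.21 log2 CPM per kb, below the median gene, and B2m, their shared light chain, was at 7.51, 6.74, 6.30 and 6.15 log2 CPM.

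**Figure D3:**
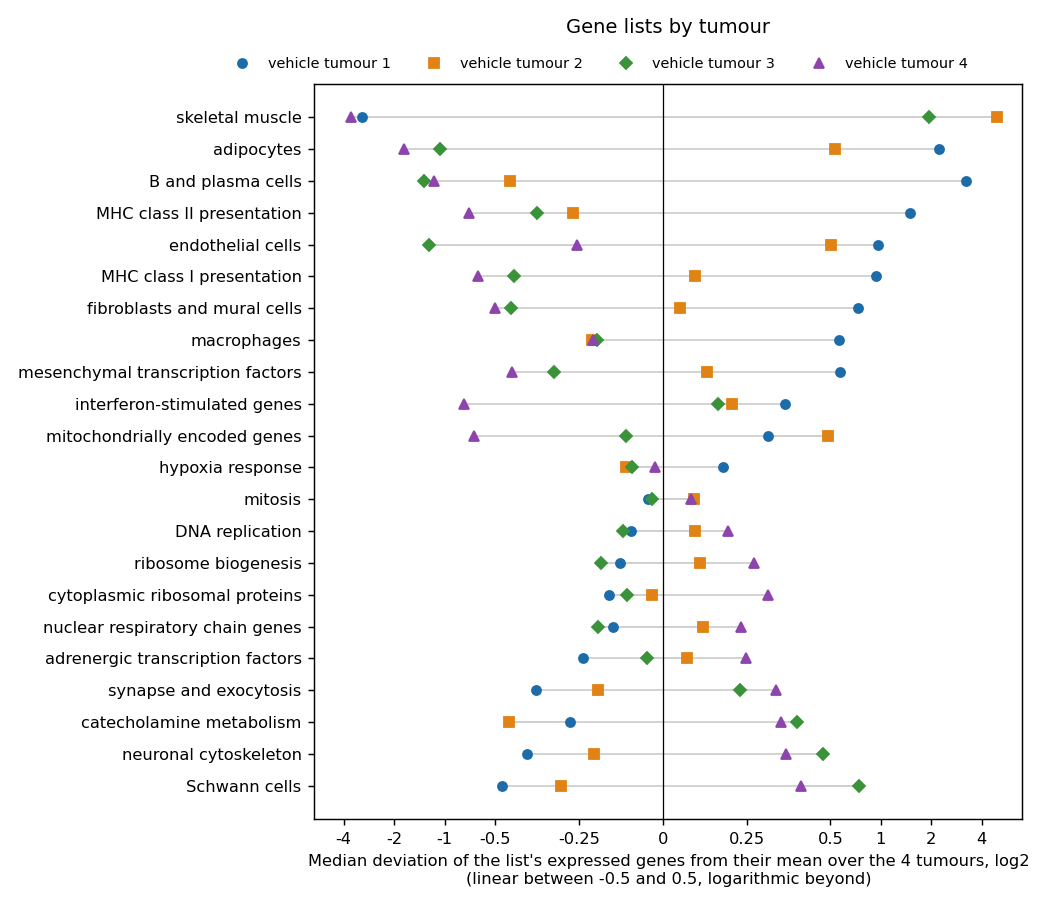
Median deviation of the expressed members of selected lists from their own mean over the 4 tumours (horizontal axis, log2, linear between -0.5 and 0.5 and logarithmic beyond), 1 symbol per tumour. Skeletal muscle separates tumours 2 and 3 from 1 and 4, fat, blood and stromal lists lead in tumour 1, and neuronal, catecholamine and Schwann cell lists lie to the right in tumours 3 and 4.

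Genes of the neuron's cytoskeleton and of synapses were higher in tumours 3 and 4 than in tumours 1 and 2. All 24 cytoskeleton genes had their highest value in tumour 3 (13) or tumour 4 (11), where 57.7% of all expressed genes had theirs, and in 20 of 24 both tumours 3 and 4 lay above both tumours 1 and 2, an order that 24.5% of expressed genes had. Stmn2, a tubulin-binding protein of growth cones, read 8.19, 8.22, 9.62 and 9.32 log2 CPM, Nefm, a neurofilament subunit, 8.91, 9.51, 10.36 and 9.92, and Gap43, the growth cone protein, 7.11, 7.32, 8.66 and 8.06. The steps were modest for the abundant tubulins and larger for Mapt, the axonal microtubule protein tau (4.73, 4.46, 7.11 and 6.21, a 6.25-fold range). Of 19 synaptic genes 14 had the same order of pairs, among them Syn1, synapsin (5.72, 5.91, 6.84 and 6.99), and Cadps (4.82, 4.94, 6.06 and 5.75). With centring within the 5 bins of GC content 21 of 24 cytoskeleton genes were highest in tumour 3, in place of 13, beside 25.7% of all genes.

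The catecholamine list had that order too, in 11 of 14 genes, beside 24.5% of all expressed genes. The largest step was in Slc6a2, the noradrenaline transporter (chr8:92960079-93001667), at 1.74, 1.39, 5.03 and 4.91 log2 CPM, a 12.5-fold range. Hand1 (chr11:57828705-57832818), a bHLH factor of the sympathoadrenal lineage, trophoblast and heart, was close to the floor in tumours 1 and 2 and expressed in tumours 3 and 4, with 0.05, -0.83, 4.65 and 4.00 log2 CPM (23, 11, 565 and 338 reads). Prph, peripherin, the intermediate filament of peripheral neurons, read -0.64, -0.49, 3.47 and 1.93. These genes split the tumours into the same pairs without overlap. Isl1 and Tfap2b had that order too, with the highest and lowest tumour 1.61-fold and 1.43-fold apart. Of 21 adrenergic factors 8 had it, beside 24.5% of all expressed genes, and 4 had the reverse order. L1cam, an axonal adhesion molecule, read 5.71, 5.85, 7.94 and 6.83, and Prkar1b, a regulatory subunit of protein kinase A in neurons, read 3.83, 3.92, 6.52 and 6.01.

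Neural crest and Schwann cell genes split in part with the same pairs. Sox10, the factor of neural crest and glia (chr15:79154908-79165240), read -1.41, 0.14, 3.25 and 2.48 log2 CPM (8, 22, 214 and 118 reads), and Foxd3, a factor of early crest, read -2.04, -0.71, 2.49 and 2.01. Ngfr, the low-affinity neurotrophin receptor of crest and Schwann cells, read 0.65, 0.63, 3.10 and 2.72, Erbb3 1.78, 2.20, 3.47 and 3.04, and Cdh19 -0.98, -0.60, 1.84 and 1.17. Of the 13 members that passed the filter, of 16 measured, 9 had both tumours 3 and 4 above tumours 1 and 2. Of all expressed genes 24.5% had that order. Of the 13 members 5 had an SD of at least 1, beside 4.87% of all expressed genes. Some passed through tumours 3 and 4, such as Foxd3, which was below 0 in the other tumours. Mbp, a myelin protein, had the same order of pairs in a narrow range (6.32, 6.49, 6.58 and 6.92 log2 CPM), and S100b, a glial marker below the expression filter, did not, with 28, 14, 10 and 7 reads. All crest genes named were low per kb, with Sox10 at percentile 10.2 of expressed genes.

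**Figure D4:**
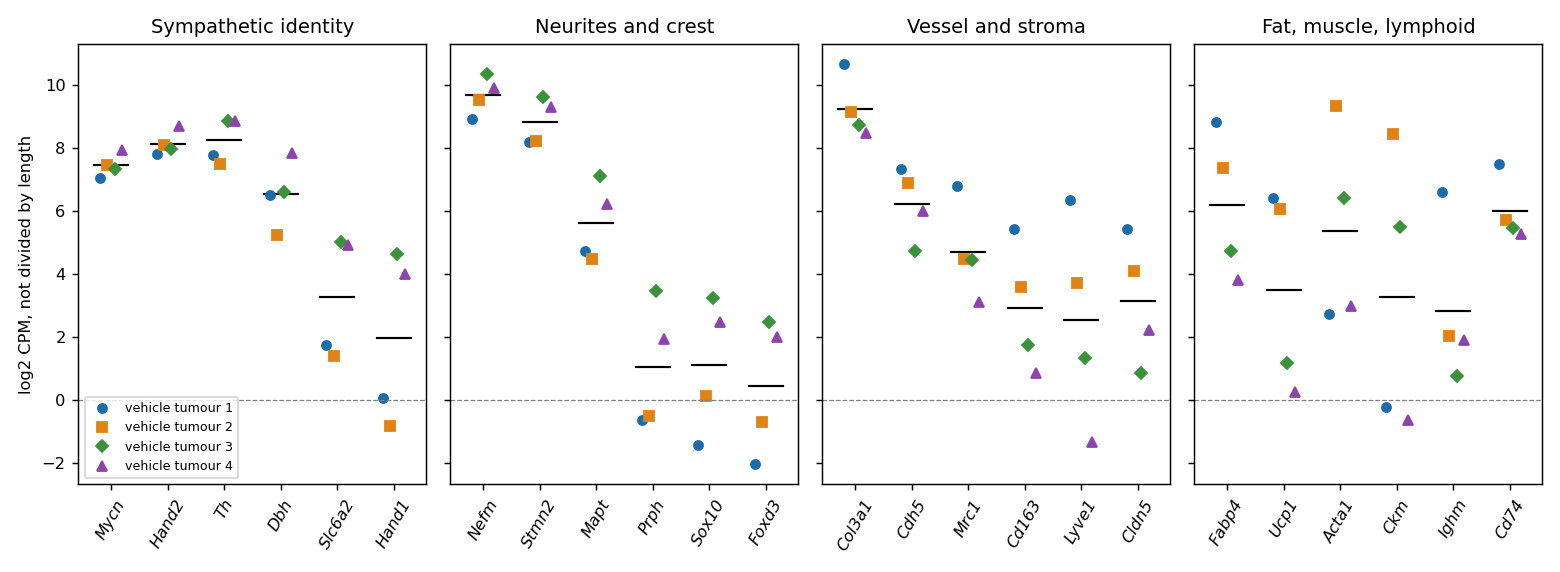
Level in each vehicle tumour (vertical axis, log2 CPM, not divided by length) of 24 genes in 4 panels. Symbols are tumours and black bars are means. The tumours lie close together in Hand2 and Mycn, Slc6a2, Hand1, Prph, Sox10 and Foxd3 are high in tumours 3 and 4, Lyve1 and Cd163 in tumour 1, and Acta1 and Ckm in tumour 2.

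Tumour 3 alone held a few neural genes at higher levels. Cartpt, a secreted neuropeptide precursor, read 4.66, 4.52, 7.33 and 5.24 log2 CPM, Gria2, a glutamate receptor subunit, read 4.37, 4.36, 6.95 and 4.36, and Snhg11, a neuronal noncoding RNA, read 3.23, 3.14, 6.67 and 4.28. Each was highest in tumour 3, and the other 3 tumours lay closer to each other. Slc17a6, a vesicular glutamate transporter below the expression filter, had 2, 13, 216 and 21 reads. Of 7 nuclear noncoding RNAs 6 were highest in tumour 3, where 18.7% of expressed genes were highest, with Malat1 at 7.53, 7.26, 7.89 and 5.96 log2 CPM.

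Tumour 4 held the fewest mitochondrial reads, and its ribosomal and nuclear respiratory genes were highest. Reads of mitochondrial genes made up 5.07%, 5.34%, 3.63% and 2.39% of the libraries. Of 15 mitochondrially encoded genes 14 were highest in tumour 2, where 18.1% of all expressed genes were highest. Of the 15, 14 were lowest in tumour 4, beside 25.8% of all expressed genes. Among them mt-Nd5 read 11.66, 11.89, 11.01 and 10.02 log2 CPM. Nuclear genes of the same complexes differed from the mitochondrially encoded genes in tumour 4: 33 of 40 were highest there, where 39% of all expressed genes were highest. In tumours 2 and 3 the median deviations of both lists had the same sign. They were 0.49 and -0.11 for mitochondrially encoded genes and 0.12 and -0.19 for nuclear genes. In tumour 1 the signs were opposite, 0.31 for mitochondrially encoded genes and -0.15 for nuclear genes. A nuclear example is Atp5b, a subunit of ATP synthase, at 10.66, 10.98, 10.52 and 11.10. Of 78 ribosomal protein genes 44 were lowest in tumour 1, where 25.4% of all expressed genes were lowest, and 74 were highest in tumour 4, such as Rpl8 with 9.82, 10.01, 9.84 and 10.45, and so were 20 of 28 translation factors, such as Eef2 with 12.09, 12.26, 12.25 and 12.77. Interferon-stimulated genes were lowest in tumour 4 in 19 of 23, where 25.8% of expressed genes were lowest. Their level was low everywhere, with a list median of 0.06 log2 CPM per kb, and Mx1 read 1.72, 1.28, 1.30 and 0.09. With quantile normalization the range of the list's median over tumours was 0.68 log2 in place of 1.13.

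The same library departed from the others by transcript composition, by level and by exon length. The median deviation in tumour 4 was -0.25 log2 in the 1 of 5 equal bins of genes with the lowest GC content and 0.25 in the bin with the highest, and in tumour 1 it was 0.10 and -0.12. By mean log2 CPM the deviation in tumour 4 was -0.23 in the lowest of 5 bins and 0.17 in the highest. In tumour 1 these values were 0.17 and -0.11. By exon length the deviation in tumour 4 was 0.15 in the shortest of 5 bins and -0.06 in the longest. In tumour 1 it was -0.06 and 0.02. Tumour 4 also had the most genes at 0 reads (213, against 132 to 164), and the effective library size the authors used was 0.888 of its read total, against 0.925 to 0.977. After centring each tumour within the 5 bins of GC content, 17 of 40 nuclear respiratory genes, 62 of 78 ribosomal protein genes and 17 of 28 translation factors were highest in tumour 4, beside 27.8% of all genes. The median deviation of the mitochondrially encoded genes in tumour 4 was -0.42 after that centring and -0.67 before. The parts of GC content, of level and of exon length in these differences were not tested. Over tumours the median of the genes of an autosome or the X chromosome ranged by 0.04 log2 (X) to 0.24 (chromosome 8). The range was 0.69 for the 6 expressed genes of the Y chromosome and 1.16 for the 18 of the mitochondrial genome. Of the autosomes and X, chromosomes 7, 8, 11, 15 and 19 had a range of at least 0.2, a bound chosen after the values were seen, and none did after centring on GC content.

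**Figure D5:**
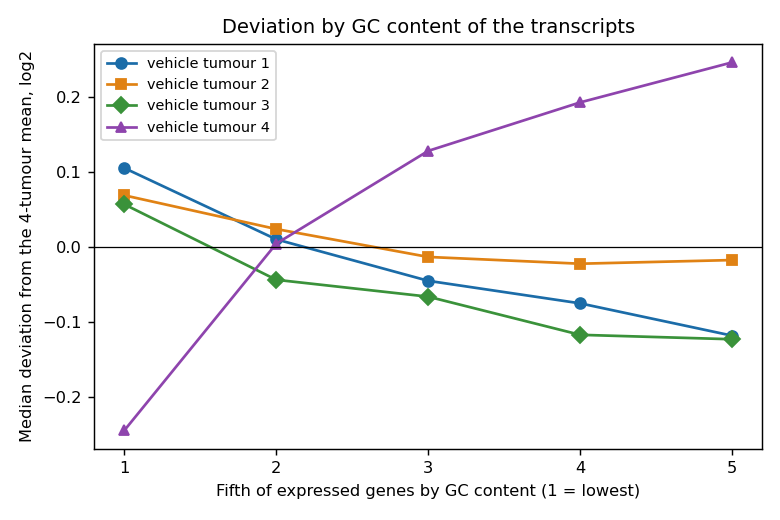
Median deviation of expressed genes from their mean over the 4 tumours (vertical axis, log2) by bin of expressed genes, in 5 bins ordered by GC content of the longest transcript (horizontal axis, lowest to highest), 1 line per tumour. Tumour 4 rises from -0.25 to 0.25, and tumours 1 and 3 fall.

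Glycolytic genes had a median SD of 0.28, against 0.287 for all expressed genes and 0.22 for those between 6 and 8 log2 CPM. Pkm, pyruvate kinase, read 10.42, 10.63, 10.56 and 10.87 log2 CPM, Ldha, lactate dehydrogenase A, 8.53, 8.69, 8.68 and 8.89, and no member of 21 had an SD of at least 1, where 0.33% of all genes between 6 and 8 log2 CPM had. Ldhb, lactate dehydrogenase B, varied most (3.48, 5.74, 4.23 and 3.94, a 4.78-fold range), and Pfkm, a phosphofructokinase, was also highest in tumour 2 (5.69, 6.94, 6.17 and 6.44). The part of muscle transcripts, which were highest in tumour 2 and intermediate in tumour 3, was not tested. Immediate early genes, which respond to stimuli, were low to moderate and without a common order: Fos read 2.44, 2.86, 2.41 and 2.79, Jun 6.25, 6.29, 6.88 and 7.09, and the median of the list ranged by 0.10 log2 over tumours. Egr1 was higher in tumours 3 and 4 (3.46, 3.52, 5.21 and 4.69), and Klf4 was higher in tumours 1 and 2 (3.74, 3.33, 1.27 and 1.10).

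Among genes with a mean of at least 5 log2 CPM the smallest SD was that of Patl1, an mRNA decapping factor, with 5.34, 5.32, 5.34 and 5.35 log2 CPM. Pold3, a subunit of DNA polymerase delta, read 6.07, 6.06, 6.09 and 6.08, and Rpl23, a ribosomal protein, read 9.08, 9.10, 9.09 and 9.13. Others of the 10 most stable were Osbpl2, Ppp1r7, Herc2, Papola, Anapc4 and Acp1, with SDs of 0.02 to 0.03. Such small SDs are also what the smallest of the many genes above that level could show, and the order among them has no test.

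Genes of the sex chromosomes were read in every tumour, and no tumour stood apart in Xist, the RNA that silences an X chromosome, with 0.33, 0.95, 0.57 and 0.21 log2 CPM. Ddx3y, a Y-linked helicase, read 6.61, 6.42, 6.15 and 4.78, Eif2s3y, a Y-linked initiation factor, read 6.48, 6.35, 6.08 and 5.20, and Uty, a Y-linked demethylase relative, read 4.53, 4.23, 4.47 and 3.76. All 3 were lowest in tumour 4. Kdm5d, a Y-linked histone demethylase, was low in tumour 3 alone, with 5.15, 5.00, 1.97 and 4.89, a 9.04-fold range.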

How the data were processed

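Whole-tumour RNA of the 4 vehicle libraries was analysed from the matrix of log2 CPM values that the authors deposited. CASAVA 1.8.2, TopHat2, HTSeq, limma and the mm10 assembly are named in the submitters' processing notes. For the annotation, strand setting, gene filter and multiply mapped reads, the choice is not given in the sources used here. The values were whole reads plus 0.5 on a log2 scale of CPM, and 100% of them came out within 0.001 of a whole read. Expressed genes had a mean of at least 0 log2 CPM. Exon lengths, positions and GC content came from GENCODE M21, which matched 17228 of 17488 identifiers. Spread beyond counting was tested with a chi-square test of homogeneity on reads (3 degrees of freedom, Benjamini-Hochberg adjusted) and checked on simulated counts. Python 3.11.15, numpy 2.4.6, pandas 2.3.3 and scipy 1.17.1 were used. Named genes were the 15 highest by log2 CPM and per kb, the 20 largest and 10 smallest SDs at a mean of at least 5 log2 CPM, the 3 highest and 2 most variable of each list, and set identity genes. Genes named outside this rule were chosen after their values were seen. The members and lists were chosen with earlier results of these data known. The alternatives were other scalings, filters, a pseudocount, lengths and leaving out each tumour, and centring on GC content was added after seeing the data. The 4 panobinostat libraries were not used. Some genes of the rule are not reported here.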

Additional observations from a re-analysis of the deposited data

Results flagged for a closer look

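With 4 tumours, 1 sample was marked where its gap to the nearest other took up more of the whole range than Dixon's bound allows. Chance marks about 1 in 20 groups, and 850 of 15409 expressed genes (5.52%), 7 of 168 expressed genes named in the text (4.17%) and 2 of 42 lists (4.76%) were marked. In tumour 4, Cenpf was low at 7.04 log2 CPM (others 8.37 to 8.55), Nop2 was high at 6.97 (others 6.14 to 6.28) and Peg10 was high at 13.19 (others 12.31 to 12.45). In tumour 3, Gria2 was high at 6.95 (others 4.36 to 4.37), Plagl1 was high at 7.53 (others 5.32 to 5.57) and 2 genes were low, Kdm5d at 1.97 (others 4.89 to 5.15) and Scarb1 at 5.42 (others 6.33 to 6.42). The macrophage list had a median deviation of 0.56 log2 in tumour 1, against -0.21 to -0.20 in the others. The adrenal cortex list, with 4 expressed genes of 12, had a median deviation of -0.52 in tumour 3, against 0.12 to 0.21 in the others.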

How the results depend on the processing

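No paired analysis was possible because the vehicle group is the only group described. The count of genes with an SD of at least 1 was 750, and it was 365 with an added pseudocount of 1 CPM, 1557 with no filter and 262 with a filter at a mean of 5 CPM. The count of genes at least 4-fold apart was 981, and it was 483, 1919 and 358 under the same alternatives. The spread exceeded counting error in 13872 genes, and in 7272 with an added technical variation of 10%. Of the 1521 genes in the top 10% per exon length, 929 were in the top 10% without length correction. Lists whose median ranged by at least 1 log2 over tumours numbered 15, and 9 with the filter at 5 CPM. Chromosomes with a range of at least 0.2 numbered 5. They were 1 with scaling to read totals, 1 with quantile normalization, 2 with median centring, 9 with the filter at 5 CPM and 0 with centring on GC content. Leaving out each tumour gave 582 to 907 genes with an SD of at least 1, 506 (without tumour 1) to 797 at least 4-fold apart, 9 (without tumour 1) to 14 lists, 0 (without tumour 4) to 3 chromosomes, 12094 to 13353 genes beyond counting error and 1482 to 1489 of the top 10% per exon length. Few reads limit low genes: at 0 reads a library allows up to 0.147 CPM. Each tumour is 1 library, so tumour and library preparation cannot be told apart.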
